A study of Mus musculus with 357 samples.

Results

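Among hematopoietic stem cells (HSCs) isolated from mouse bone marrow 5 weeks after a histone label was induced, 24 of 91 on one plate and 23 of 83 on another gave no PCR product for Ly6a, and these 47 were compared with the 67 and 60 that did. Cells were selected on the threshold cycle (Ct) of the Ly6a reaction, the PCR cycle at which fluorescence passes a set level. A cell was placed in the Ly6a-undetected group when its Ct was above 25 or when the reaction was recorded as giving no product. It was placed in the Ly6a-detected group at Ct 25 or below. The groups were formed within each of the 2 plates of the 5-week time, with 24 undetected and 67 detected cells on plate 1 and 23 undetected and 60 detected cells on plate 2. The groups were therefore made from a measured value, and Ly6a itself is given only as a description.

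The whole data set held 357 cells measured with 96 gene assays by single-cell reverse transcription and quantitative PCR, from HSCs taken 2 or 5 weeks after labelling. Every cell came from mice of the genotype Col1a1-tetO-H2B-mCherry, which carry a fluorescent histone under a tetracycline-responsive element. The label is diluted as cells divide, but label intensity per cell was not analysed here. Cells of both groups and both times were sorted as Lin-Sca1+c-kit+CD48-CD150+ cells, so the Ly6a-undetected cells had also been gated as positive for Sca1 protein. The labels give neither the age nor the number of the mice, nor the transactivator or inducing agent. No animal is named, so each chase time counted as 1 sample, cells were not treated as replicates, and no test was made. The 2 plates were the only repeated unit and may be technical repeats. Intervals on shares are exact Clopper-Pearson 95% intervals over cells and cover counting error only. Where a share is 0, the bound given is instead 3 counts over the cells examined, which is lower than the upper end of the exact interval.

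Ly6a encodes Sca1, a small cell-surface protein held in the membrane by a lipid anchor and used to sort mouse stem and early progenitor cells. Its level is known to be low on committed megakaryocyte and erythroid progenitors, and it can be raised by interferon. CDK6 is a cyclin-dependent kinase that acts with D-type cyclins early in the cell cycle and is known to influence how quickly a resting HSC enters division.

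Ly6a was undetected in 26.4% of plate 1 cells (interval 17.7 to 36.7%) and in 27.7% of plate 2 cells (18.4 to 38.6%). The shares on the 2 plates thus lay close together. On the 2-week plates Ly6a was undetected in 10 of 90 cells (11.1%, 5.46 to 19.5%) and in 6 of 93 cells (6.45%, 2.40 to 13.5%). Both 5-week shares were above both 2-week shares.

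The undetected group held only reactions without a product, since 0 Ly6a products at 5 weeks were later than Ct 25. In the detected group the Ly6a Ct had a lowest value of 12.2, a median of 14.4 and a highest value of 24.4 on plate 1. On plate 2 these values were 11.5, 14.3 and 22.5. Just inside the limit lay the cells at 24.4, 23.9 and 22.1 on plate 1 and at 22.5, 19.1 and 17.2 on plate 2, and just outside it lay only reactions with no product. Most detected cells were far from the limit, the medians being 10.6 and 10.7 cycles below it, and 3 and 2 detected cells were later than Ct 18.

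**Figure D1:**
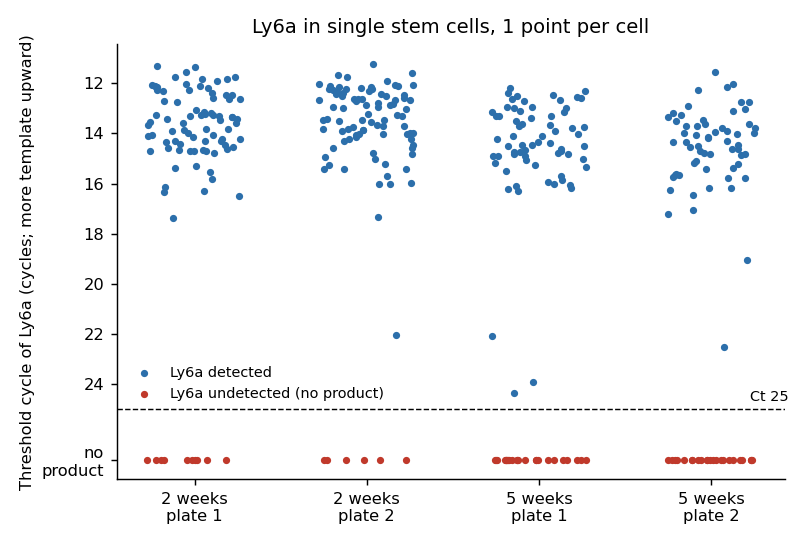
Ly6a Ct of each 5-week cell, by plate, with the axis turned so that more template is higher; points are cells, the line marks Ct 25, and cells with no product stand in a separate band. The 24 and 23 cells without a product are separated from detected cells whose medians were 14.4 and 14.3.

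The amount of reference RNA was compared between the groups first. Actb and Gapdh, which encode beta-actin and a glycolytic enzyme, had a mean Ct of 11.38 ± 0.95 (SD over 24 cells) in undetected and 11.34 ± 0.78 (67 cells) in detected cells on plate 1. On plate 2 the mean was 11.28 ± 0.66 (23 cells) in undetected and 11.59 ± 0.77 (60 cells) in detected cells. The differences of 0.04 and -0.30 cycles were smaller than the SD between cells, so undetected cells held about as much or slightly more reference template. Of the 95 assays other than Ly6a, undetected cells had a product in 58.4 ± 3.99 and detected cells in 59.2 ± 5.54 on plate 1, and in 54.8 ± 7.60 and 57.95 ± 4.99 on plate 2. One undetected cell of plate 2 had a product in only 27 assays. By position on plate 2, Ly6a was undetected in 39% of cells in columns 1 to 6 and 16.7% in columns 7 to 12, whereas plate 1 had 25.5% and 27.3%. The part of well position in the results was not tested.

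Across the 95 assays, the share of cells with a product at Ct 25 or below was compared on each plate as undetected minus detected, in percentage points. An assay was called when its share differed by at least 10 points in one direction on both plates. With so few undetected cells, 10 points were 2.4 cells on plate 1 and 2.3 cells on plate 2. By this rule 2 assays, Gata1 and Itga2b, were higher in Ly6a-undetected cells, or 2.11% of those compared. Another 4, Notch1, Trib2, Hk3 and mettl7a1, were lower, or 4.21%. Over the 95 assays the differences had a median of -0.46 points, and 32 were above 0, 50 below and 13 at 0. Called assays were thus few, and most assays lay near 0. Without the edge wells of each plate, Gata1 and Notch1 were still called, while Itga2b, Trib2, Hk3 and mettl7a1 were not.

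**Figure D2:**
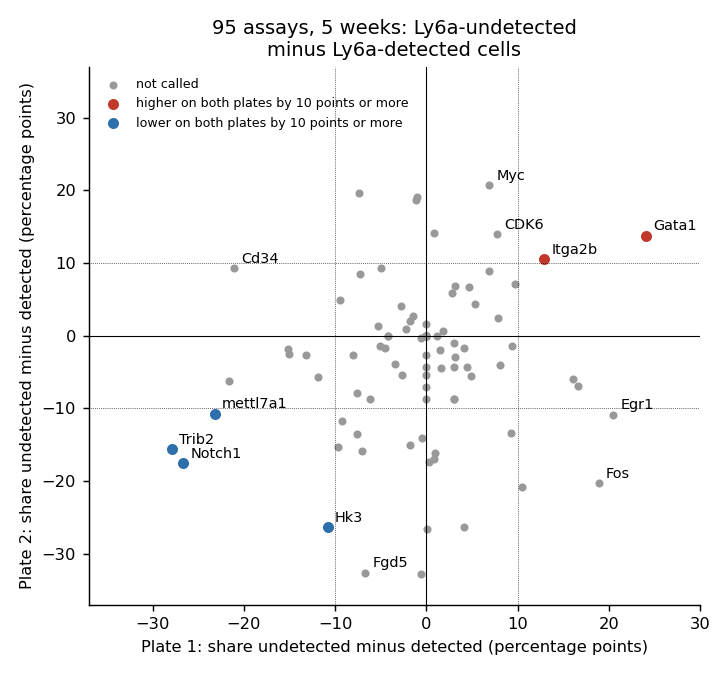
Difference in the share of cells with a product (Ly6a-undetected minus Ly6a-detected, percentage points) for each of the 95 assays on plate 1 (horizontal) and plate 2 (vertical), at 5 weeks. Gata1 (24.1 and 13.8) and Itga2b (12.9 and 10.5) lie past 10 points on both plates, and Notch1, Trib2, Hk3 and mettl7a1 lie past -10 on both.

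Gata1, a zinc-finger transcription factor that directs erythroid and megakaryocyte differentiation, was detected more often in cells without Ly6a. On plate 1 it had a product in 9 of 24 undetected cells (37.5%) and 9 of 67 detected cells (13.4%). On plate 2 it had one in 7 of 23 (30.4%) and 10 of 60 (16.7%). The groups did not overlap across plates, since the lower undetected share (30.4%) was above the higher detected share (16.7%), and the differences were 24.1 and 13.8 points. Over both plates the shares were 34% (20.9 to 49.3%) and 15.0% (9.25 to 22.4%), so the intervals overlapped slightly. Allowing for the mean Ct of Actb and Gapdh in each cell, the differences were 24.7 and 12.5 points. In cells within the range of Actb and Gapdh Ct that both groups covered, they were 23.7 and 7.74 points, so that Gata1 was then not called. Later than Ct 18 came 34.3% of its products, and with a limit of Ct 18 the differences were 20.2 and 19.4 points. Shares that do not overlap across plates were not particular to called assays. Cdt1, which was not called, had 50 and 52.2% in undetected and 40.3 and 45% in detected cells. Prdm16 and Sfpi, also not called, separated in the lower direction. The same limit holds for Notch1, Trib2 and mettl7a1 below.

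Where Gata1 was detected at all, its Ct on plate 1 was similar between groups. The lowest, median and highest Ct there were 13, 15.6 and 23.3 in undetected and 13.9, 15.8 and 20.3 in detected cells. On plate 2 they were 12.5, 14.6 and 22.0 in undetected and 14.9, 19.9 and 24.1 in detected cells. The level, defined as the mean Ct of Actb and Gapdh minus the Ct of the gene among detecting cells (log2 units), was higher in undetected cells by 0.02 on plate 1 and by 3.22 on plate 2. The higher level was therefore seen on 1 plate.

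Itga2b encodes integrin alpha IIb (CD41), a subunit of the platelet fibrinogen receptor that is also present on some HSCs. It had a product in 16 of 24 undetected cells (66.7%) and 36 of 67 detected cells (53.7%) on plate 1, and in 12 of 23 (52.2%) and 25 of 60 (41.7%) on plate 2. The differences were 12.9 and 10.5 points, but the plates overlapped, because the undetected share on plate 2 was below the detected share on plate 1. Pooled shares were 59.6% (44.3 to 73.6%) and 48% (39.1 to 57.1%), with intervals that overlapped widely. Allowing for Actb and Gapdh left 14 and 1.84 points, so Itga2b was no longer called, and the adjusted count was 1 higher (1.05%) and 4 lower (4.21%). At Ct 18 the differences were 14.9 and 4.71 points, and 80.9% of Itga2b products came after Ct 18.

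The level of Itga2b among detecting cells differed more evenly. On plate 1 it was -7.56 ± 2.27 (SD, 16 cells) in undetected and -8.79 ± 1.74 (36 cells) in detected cells, a difference of 1.23 log2 units. On plate 2 it was -8.11 ± 1.62 (12 cells) and -9.02 ± 1.81 (25 cells), a difference of 0.92. Each difference was smaller than the SD between cells.

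Gata1 and Itga2b are shown with their upstream windows because they were the assays detected more often without Ly6a. RefSeq (GRCm38.p6) gives the 250 bases before the annotated start of each gene, here at chrX:7967911-7968160 for Gata1 and chr11:102469884-102470133 for Itga2b, both on the minus strand. The start used for Gata1 is not its outermost one, so that window lies within the gene. Capitals mark GATA, the core bound by GATA factors, and GGAAG, a core bound by ETS factors, searched on both strands (TATC and CTTCC on the reverse).
Gata1: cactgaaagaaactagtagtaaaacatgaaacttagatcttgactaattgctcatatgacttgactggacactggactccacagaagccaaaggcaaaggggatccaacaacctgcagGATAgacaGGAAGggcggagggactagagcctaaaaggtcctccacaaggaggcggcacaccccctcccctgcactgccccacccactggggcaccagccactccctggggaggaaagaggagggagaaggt
Itga2b: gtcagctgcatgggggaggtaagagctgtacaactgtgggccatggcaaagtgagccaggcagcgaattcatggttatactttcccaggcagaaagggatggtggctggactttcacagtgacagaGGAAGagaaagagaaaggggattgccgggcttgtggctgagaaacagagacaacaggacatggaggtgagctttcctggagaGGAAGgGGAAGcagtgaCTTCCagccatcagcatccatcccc
The Gata1 window held 1 GATA and 1 GGAAG, and the Itga2b window held 0 GATA and 4 GGAAG. Over 32851 windows of this length GATA occurred in 53.6% and GGAAG in 64.1%, so neither motif is rare, and a match here is only a description of the letters.

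The other measured genes of the megakaryocyte and erythroid lineages were less even. Of 8 in this list 2 were called higher, beside 2.11% of all assays, and 0 lower, and allowing for Actb and Gapdh 1 was called higher. The median difference was 8.11 points (6.47 with Actb and Gapdh allowed for) beside -0.46 over all assays. The median was 0.44 on plate 1 alone and 12.1 on plate 2 alone. Without edge wells it was 2.42. Epor, the erythropoietin receptor, differed by -0.995 and 19.1 points, and Gfi1b, a transcriptional repressor needed in both lineages, by -1.12 and 18.6, so each stood apart on plate 2 only. Klf1, an erythroid transcription factor, was detected in 8.33% of undetected and 7.46% of detected cells on plate 1 and in 17.4% and 3.33% on plate 2. For vwf, which encodes von Willebrand factor and marks platelet-biased HSCs, the differences were 4.91 and -5.51 points. This list was chosen with earlier results of these cells known, so its direction is not independent evidence.

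Counted per cell, undetected cells had a product for 4.75 ± 1.59 of the 8 genes on plate 1 and detected cells for 4.34 ± 1.31. On plate 2 the means were 4.70 ± 1.58 and 4.03 ± 1.18. Both differences were smaller than the SD between cells. At the upper end, 6 or more of the 8 were detected in 7 of 24 undetected (29.2%) and 13 of 67 detected cells (19.4%) on plate 1, and in 5 of 23 (21.7%) and 6 of 60 (10%) on plate 2. Gata1 and Itga2b were detected together in 8 of 24 undetected (33.3%) and 7 of 67 detected cells (10.4%) on plate 1, and in 5 of 23 (21.7%) and 4 of 60 (6.67%) on plate 2. Cells with both products were therefore a minority of each group but a larger share of the undetected one on each plate. This pair was made of the assays called higher in these same cells, so its larger joint share is not independent of those calls.

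**Figure D3:**
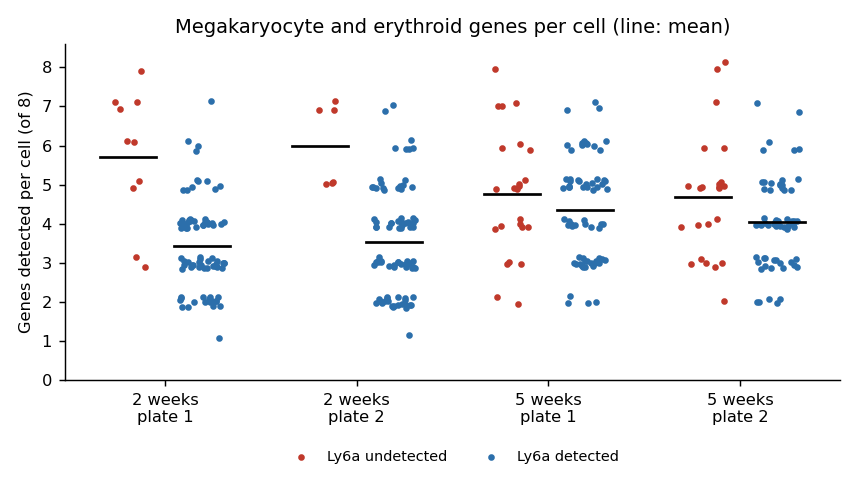
Number of the 8 megakaryocyte and erythroid genes with a product in each cell, by Ly6a group, plate and chase time; points are cells and the line is the mean. At 5 weeks the means were 4.75 and 4.34 (plate 1) and 4.70 and 4.03 (plate 2) in undetected and detected cells, and at 2 weeks 5.7 and 3.42, and 6.0 and 3.53.

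Within the undetected cells, the 16 with a Gata1 product differed from the 31 without, in a division chosen after its values were seen and given only as counts over both plates. Flt3, the receptor tyrosine kinase of lymphoid and early multipotent progenitors, had a product in 1 of 16 cells with Gata1 (6.25%, 0.158 to 30.2%) and in 18 of 31 cells without (58.1%, 39.1 to 75.5%). Among Ly6a-detected cells it had a product in 9 of 19 with Gata1 (47.4%) and in 50% of those without. By plate, those with Gata1 had a product in 6 of 9 cells and 3 of 10, and those without in 32 of 58 and 22 of 50, so the direction there differed between plates. In the undetected cells Flt3 was found less often with Gata1 on both plates, in 0 of 9 against 10 of 15 and in 1 of 7 against 8 of 16. The difference between the Ly6a groups was not tested.

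Klf1 was detected in 5 of 16 undetected cells with Gata1 and 1 of 31 without, and Epor in 10 of 16 and 7 of 31. Itga2b was detected in 13 of 16 and 15 of 31, and mettl7a1 in 9 of 16 (56.2%) and 27 of 31 (87.1%). Klf1, Epor and Itga2b were thus detected more often, and mettl7a1 less often, in the undetected cells with Gata1. Among Ly6a-detected cells the pooled shares with and without Gata1 were 21.1 and 2.78% for Klf1, 42.1 and 25% for Epor, and 57.9 and 46.3% for Itga2b. On plate 2 alone, Epor was found in 2 of 10 with Gata1 and 10 of 50 without, and Itga2b in 4 of 10 and 21 of 50. The higher pooled shares of Epor and Itga2b there thus came from plate 1. Klf1 was found in 3 of 9 with Gata1 and 2 of 58 without on plate 1. On plate 2 it was found in 1 of 10 and 1 of 50, so its higher share there rested on 1 cell with Gata1. For mettl7a1 the counts were 8 of 9 and 55 of 58 on plate 1, and 10 of 10 and 46 of 50 on plate 2. The Gata1-positive undetected cells had more reference template, with a mean Actb and Gapdh Ct of 10.9 ± 0.70 against 11.6 ± 0.77, and more assays with a product, 59.6 ± 4.65 against 55.2 ± 6.48. The part of this in the counts was not tested.

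Notch1, a transmembrane receptor whose signal directs T-lineage choice, was detected less often in the cells lacking Ly6a. It had a product in 9 of 24 undetected cells (37.5%) and 43 of 67 detected cells (64.2%) on plate 1, and in 9 of 23 (39.1%) and 34 of 60 (56.7%) on plate 2. Both undetected shares were below both detected shares, with differences of -26.7 and -17.5 points. Pooled shares were 38.3% (24.5 to 53.6%) and 60.6% (51.6 to 69.2%), with intervals overlapping by little. Allowing for Actb and Gapdh the differences were -26.8 and -15.2 points, and 0 Notch1 products came after Ct 18.

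Trib2 encodes a pseudokinase that promotes the breakdown of the transcription factor C/EBP alpha. It was detected in 8 of 24 undetected (33.3%) and 41 of 67 detected cells (61.2%) on plate 1, and in 6 of 23 (26.1%) and 25 of 60 (41.7%) on plate 2, differences of -27.9 and -15.6 points. Here too both undetected shares were below both detected shares. Since 53.8% of Trib2 products came after Ct 18, the differences at that limit were -14.4 and -8.62 points, and Trib2 was then below the call size on plate 2.

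Hk3 encodes a hexokinase that is abundant in myeloid cells. It had a product in 6 of 24 undetected (25%) and 24 of 67 detected cells (35.8%) on plate 1, and in 2 of 23 (8.70%) and 21 of 60 (35%) on plate 2. The detected shares were alike on both plates while the undetected ones varied, with differences of -10.8 and -26.3 points. With the number of products in the cell as covariate, plate 1 was -9.72 points and Hk3 was not called. The pooled shares were 17% (7.65 to 30.8%) and 35.4% (27.2 to 44.4%).

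The gene mettl7a1, which encodes a methyltransferase-like protein, was detected in most cells of either group. It had a product in 17 of 24 undetected (70.8%) and 63 of 67 detected cells (94%) on plate 1, and in 19 of 23 (82.6%) and 56 of 60 (93.3%) on plate 2. Both undetected shares were below both detected shares, by differences of -23.2 and -10.7 points, and the pooled intervals, 62 to 87.7% and 88 to 97.2%, did not overlap. With Actb and Gapdh allowed for, the differences remained -23.2 and -10.7 points. Plate 2 was below the call size at Ct 18 (-7.39 points), with the number of products as covariate (-8.20), and in cells within the shared range of Actb and Gapdh Ct (-8.93).

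CDK6 was detected in nearly all cells lacking Ly6a and in somewhat fewer of the others. It had a product in 23 of 24 undetected (95.8%) and 59 of 67 detected cells (88.1%) on plate 1, and in 22 of 23 (95.7%) and 49 of 60 (81.7%) on plate 2. The differences of 7.77 and 14 points put it below the call size on plate 1. Pooled shares were 95.7% (85.5 to 99.5%) and 85% (77.6 to 90.7%), and their intervals overlapped. Allowing for Actb and Gapdh the differences were 8 and 12.3 points. Later than Ct 18 came 14.4% of CDK6 products. With a limit of Ct 18 the shares in undetected and detected cells were 83.3 and 76.1% on plate 1 and 78.3 and 70% on plate 2. The differences were then 7.21 and 8.26 points, below the call size on both plates.

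Among detecting cells the Ct of CDK6 spread widely in each group. The lowest, median and highest Ct on plate 1 were 11.8, 14.6 and 24.2 in undetected and 11.6, 15.0 and 24.4 in detected cells, and on plate 2 they were 11.9, 14 and 23.5 in undetected and 12.4, 15.3 and 24.2 in detected cells. The CDK6 level was higher in undetected cells by 0.31 on plate 1 (-4.07 ± 3.26 against -4.38 ± 2.48) and by 0.35 on plate 2 (-3.98 ± 3.35 against -4.33 ± 2.84), small beside the SD between cells. Over all cells, with undetected reactions set at Ct 25, the differences were 0.97 and 1.57 log2 units.

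CDK6 also differed among the cells that had Ly6a. These were ranked within each plate by Ly6a Ct and divided into tertiles of 23, 22 and 22 cells on plate 1 and of 20 each on plate 2. From no Ly6a product through the weakest, middle and strongest tertile, CDK6 was detected in 95.8, 95.7, 90.9 and 77.3% of cells on plate 1, and in 95.7, 95.0, 85 and 65% on plate 2. The weakest tertile was therefore close to the undetected cells, and the strongest had the lowest share on both plates. The CDK6 level over all cells followed, at -4.47, -4.11, -4.58 and -7.69 on plate 1 and -4.39, -4.06, -5.73 and -8.07 on plate 2.

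The called assays took other courses over the same ranking. Gata1 had shares of 37.5, 17.4, 22.7 and 0% on plate 1, where 0 of 22 cells in the strongest tertile allows a share of up to 13.6%, and of 30.4, 25, 10.0 and 15.0% on plate 2. For mettl7a1 the shares were 70.8, 91.3, 90.9 and 100% on plate 1 and 82.6, 90, 95 and 95% on plate 2. Its largest step on each plate lay between no product and the weakest tertile. The share rose again to the strongest tertile on plate 1 and to the middle one on plate 2, where the steps were close in size. Hk3 had 25, 8.70, 50 and 50% on plate 1 and 8.70, 30, 25 and 50% on plate 2, so the strongest tertile had the highest share on plate 2 and tied with the middle one on plate 1.

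**Figure D4:**
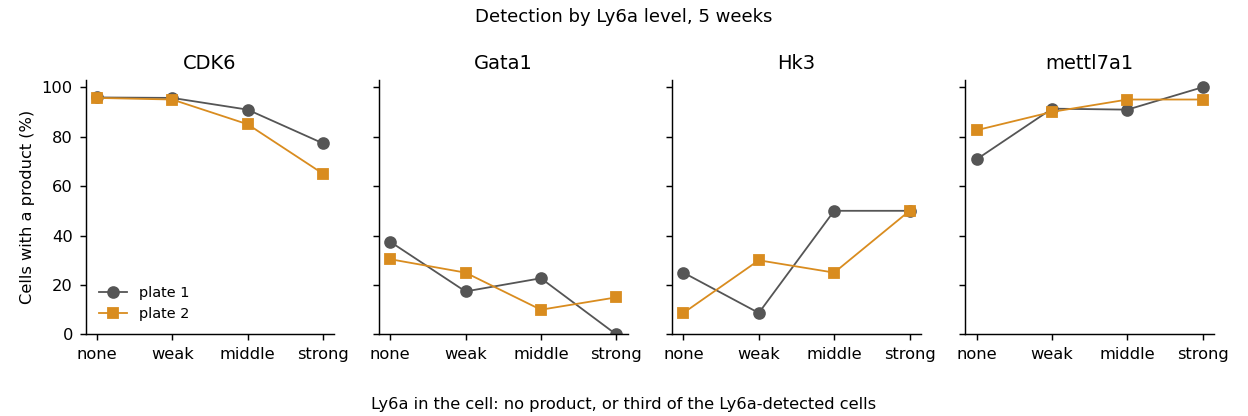
Share of 5-week cells with a product (percent, vertical) for CDK6, Gata1, Hk3 and mettl7a1 in cells with no Ly6a product and in the weak, middle and strong tertile of Ly6a-detected cells, by plate. CDK6 is lowest in the strongest tertile (77.3% on plate 1 and 65% on plate 2), while mettl7a1 is lowest in cells with no Ly6a product (70.8% and 82.6%).

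Rank correlations across cells gave assays among those most like and most unlike Ly6a at 5 weeks, with undetected reactions set at Ct 25. They are descriptive, since all cells of a plate share its chip and each cell its amount of RNA. Over the 91 cells of plate 1 and the 83 of plate 2, Spearman's rho was 0.39 and 0.44 for mettl7a1 and 0.31 and 0.32 for Hk3. It was -0.28 and -0.40 for CDK6, -0.32 and -0.18 for Gata1, and -0.17 and -0.32 for Myc, a transcription factor that drives growth. All of these were modest in size. In cells with both products, rho for CDK6 was -0.21 (59 cells) and -0.14 (49 cells), and for mettl7a1 it was 0.17 (63 cells) and 0.51 (56 cells). For Hk3 it was 0.028 (24 cells) and 0.19 (21 cells).

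Of the 9 cell cycle genes measured, CDK6 among them, 0 were called either way, with a median difference of 0 points. Some of these had a product in every cell of both groups, so their shares could not differ. Over all 95 assays 2.11% were called higher and 4.21% lower. So few calls in this and the following lists therefore say little about any list. Myc was detected in 87.5% of undetected and 80.6% of detected cells on plate 1 and in 95.7% and 75% on plate 2, so only plate 2 passed the call size. Cdt1, a factor that licenses replication origins, differed by 9.7 and 7.17 points, and Ccnd1, a D-type cyclin, by -7.65 and -7.83. None of 12 cell cycle inhibitors and pocket proteins was called, with a median of -1.03 points. Among these, ndn, the gene of the growth suppressor necdin, showed differences of -15.1 and -1.81 points. Rbl1, a relative of the retinoblastoma protein, differed by -0.498 and -14.1, Mdm2, which restrains p53, by 6.9 and 8.91, and Cdkn1c, the inhibitor p57, by 3.11 and 6.88.

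Of 20 stem cell genes 0 were called, with a median of -2.38 points. Fgd5, a marker of HSCs, was detected in 12 of 24 undetected (50%) and 38 of 67 detected cells (56.7%) on plate 1 but in 4 of 23 (17.4%) and 30 of 60 (50%) on plate 2, so its difference of -32.6 points was on plate 2 and only -6.72 on plate 1. Prdm16, a transcriptional regulator needed for HSC maintenance, was rare, with a product in 1 of 47 undetected (2.13%, 0.0539 to 11.3%) and 12.6% of detected cells (7.38 to 19.7%), and its differences were -9.27 and -11.7 points. The homeobox gene Nkx2.3 (0.0622 and -26.5 points) and Mllt3, a regulator of HSC self-renewal (0.311 and -17.4), likewise stood apart on plate 2 only. Hlf, a transcription factor typical of HSCs, was detected in 46 of 47 undetected cells and in 100% of detected cells.

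Genes of the sorted phenotype were similar, with 0 of 4 called and a median of -0.05 points. Kit, the c-kit receptor, had a product in 100% of undetected and 99.2% of detected cells, and Slamf1, which encodes CD150, in 55.3% and 55.9%. Cd48, which the gate excludes, was detected in 2.13% and 1.57% of cells. For Kit and Slamf1 the shares of the groups were thus close. Cd34, an antigen that is low on long-term HSCs, differed by -21.1 points on plate 1 and 9.28 on plate 2, in opposite directions. None of the 12 listed markers of mature blood, endothelial and stromal cells was among the 96 assays, so these could not be examined.

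Of 6 granulocyte and monocyte genes 0 were called, with a median of -1.48 points. Sfpi differed by -11.9 and -5.72 points, Csf2rb, the shared beta chain of several cytokine receptors, by -13.2 and -2.61, and Cebpa, a myeloid transcription factor, by -7.34 and 19.6. Csf1r, a cytokine receptor of the macrophage lineage, had a product in 0 of 47 undetected cells, which allows a share of up to 6.38%, and in 3.15% of detected cells. Of 8 lymphoid genes 1, Notch1, was called lower and 0 higher, beside 4.21% and 2.11% of all assays, with a median of 0 points. Flt3 as a whole differed by -15.0 and -2.54 points and Ikzf1, a zinc-finger factor of lymphoid development, by -5.35 and 1.3.

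None of 3 immediate early genes was called by share, with a median of 3.97 points. Egr1, a zinc-finger factor induced by growth signals, differed by 20.5 points on plate 1 and -10.9 on plate 2, and Fos, a subunit of AP-1, by 18.9 and -20.3, so both lay in opposite directions on the plates. Jun, its partner, differed by 9.39 and -1.45. Of 3 Polycomb genes 0 were called, with a median of -4.02 points. Cbx7, a reader of a repressive histone mark, differed by -7.03 and -15.8 points, its relative Cbx6 by -2.67 and -5.36, and Ezh1, a histone methyltransferase, by 1.55 and -4.42.

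Levels among detecting cells were compared for 71 assays, those with 5 or more detecting cells per group and plate, and an assay was called at 0.5 log2 units or more in one direction on both plates. By this rule 2 assays (2.82%) were higher in undetected cells, Itga2b and IKZF2, and 2 (2.82%) were lower, Egr1 and Cebpb. IKZF2, a lymphoid zinc-finger factor also known as Helios, was higher by 0.52 and 0.85. Egr1 had a level of -3.14 ± 1.67 (11 cells) in undetected and -2.50 ± 2.09 (17 cells) in detected cells on plate 1, and of -4.25 ± 0.99 (9 cells) and -3.05 ± 1.61 (30 cells) on plate 2, differences of -0.63 and -1.20. Cebpb, a myeloid transcription factor, differed by -0.80 and -0.97. Over all cells, with undetected reactions at Ct 25, the mean difference of Egr1 turned to 0.17, and with at least 10 detecting cells required 0 assays were called lower. Called differences in level were thus few, rested on small numbers of cells, and did not exceed the SD of the detected cells. For Egr1 on plate 2, however, the difference (-1.20) was larger in size than the SD of the undetected cells (0.99).

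The same division at 2 weeks rested on 16 undetected cells. There, 16 assays (16.8%) were called higher and 8 (8.42%) lower, but the undetected cells also held more reference template. Their mean Actb and Gapdh Ct was 10.73 ± 0.71 (10 cells) against 11.72 ± 0.57 (80 cells) on plate 1 and 10.78 ± 0.35 (6 cells) against 11.51 ± 0.76 (87 cells) on plate 2, differences of -1.0 and -0.72 cycles that the 5-week cells lacked. Allowing for this Ct, 10 assays (10.5%) were called higher and 9 (9.47%) lower. The part of the remaining difference in RNA amount was not tested.

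Of the 2 assays called higher at 5 weeks, both were also among the 16 at 2 weeks, and of the 4 called lower, 2 (Hk3 and mettl7a1) were among the 8. Gata1 was detected at 2 weeks in 7 of 10 undetected and 4 of 80 detected cells on plate 1 and in 4 of 6 and 6 of 87 on plate 2. The pooled shares were 68.8% (41.3 to 89%) and 5.99% (2.91 to 10.7%), so the intervals were far apart. Allowing for Actb and Gapdh the mean difference of 62.4 points became 52.8, and that of Itga2b (60.3 points) became 34. The mean difference for Gata1 at 5 weeks was 18.9 points, and the difference between the times was not tested.

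At 2 weeks Hk3 was detected in 1 of 16 undetected cells and mettl7a1 in 37.5% (15.2 to 64.6%) against 73.7% (66.3 to 80.2%). CDK6 differed by 13.8 and 10.3 points there, but by -8.31 and 6.93 once Actb and Gapdh were allowed for, so its direction was no longer shared by both plates. Notch1 differed by -13.8 and 2.87 points and Trib2 by 5 and 7.47, so neither was lower on both plates at the Ct 25 limit. At Ct 18, however, Trib2 was lower on both 2-week plates, by differences of -12.5 and -4.60 points. Of the 8 megakaryocyte and erythroid genes 5 were called higher at 2 weeks, beside 16.8% of all assays, with a median of 33.3 points beside 0.57 over all assays. Allowing for Actb and Gapdh, 4 were called, beside 10.5% of all assays, and the median was 23.5. Gata1 and Itga2b were detected together in 7 of 10 undetected and 2 of 80 detected cells on plate 1 and in 4 of 6 and 5 of 87 on plate 2.

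**Figure D5:**
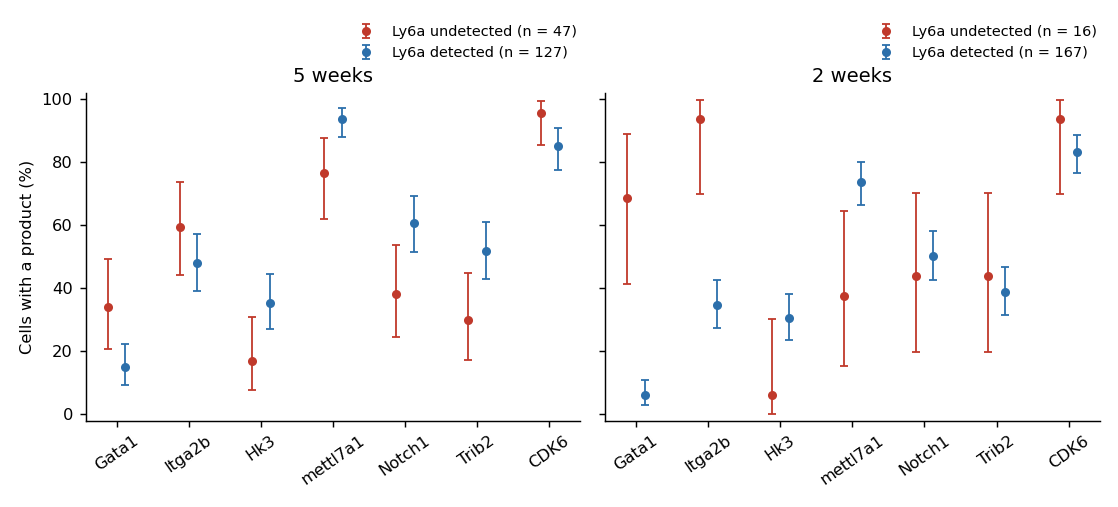
Share of cells with a product (percent, both plates of a time pooled) for 7 assays in Ly6a-undetected and Ly6a-detected cells at 2 and 5 weeks; bars through the points are Clopper-Pearson 95% intervals. Gata1 is higher without Ly6a at both times (68.8% and 5.99% at 2 weeks, 34% and 15.0% at 5 weeks), while Notch1 and Trib2 are lower at 5 weeks.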

How the data were processed

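Single HSCs were sorted into lysis buffer, reverse transcribed, pre-amplified for 22 cycles with 96 assays, treated with exonuclease, diluted 5-fold and measured with EvaGreen over 30 PCR cycles on a microfluidic chip, per the labels' protocols. The authors deposited 1 Ct per assay and cell, not normalized, with a code for no product; what software and threshold set it is not given in the sources used here. A Ct lower by 1 is about 1 doubling more template. The dye binds all double-stranded DNA, and a late signal may come from a non-specific product. Of 16704 reactions at 5 weeks, 38.5% had no product, the others spanned Ct 9.09 to 27.6, and 34 products were later than Ct 25.

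From these values the shares, levels and correlations were computed with Python 3.11.15, pandas 2.3.3, numpy 2.4.6 and scipy 1.17.1. The steps for shares and levels were tested on simulated plates with many more cells and with set differences above the call sizes. That test cannot show how often a call would be wrong at the cell numbers here. The shares allowing for Actb and Gapdh are least-squares coefficients within a plate. Genes were named by a rule: CDK6, the called assays, the sort and reference genes, up to 4 members of each list by size of difference, and the 3 most positive and 3 most negative correlations with Ly6a on the weaker plate among assays detected in at least 10% of cells; Klf1, vwf and Hlf are named outside it, after their values were seen. A gene that the rule took is not reported here. The members and lists were chosen with earlier results of these data known. Of the assay names, 82 matched RefSeq symbols (GRCm38.p6) as printed, 12 in another case and 1 with another separator, and Sfpi was kept as printed. Alternatives were other Ct limits, covariates, cells, wells, call sizes and centrings, each plate left out, and, chosen after seeing the data, 1 cell left out.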

Additional observations from a re-analysis of the deposited data

Results flagged for a closer look

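At the Ct 25 limit Trib2 lay in opposite directions at the 2 chase times. Its mean difference in share, Ly6a-undetected minus Ly6a-detected, was -21.7 points at 5 weeks, with both plates below 0, and 6.24 points at 2 weeks, with both plates above 0. At 2 weeks Trib2 had a product in 4 of 10 undetected and 28 of 80 detected cells on plate 1 and in 3 of 6 and 37 of 87 on plate 2. This direction at 2 weeks depended on late products: 80.6% of its products there came after Ct 18, and at that limit the differences were -12.5 and -4.60 points (mean -8.55), lower on both plates as at 5 weeks. With Actb and Gapdh as covariate, the 2-week differences were -2.53 and 4.07 points. The difference between the times was not tested.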

How the results depend on the processing

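No paired analysis was possible because the replicate numbers only follow the order of the cells, and the results come from no test. Against 2 assays called higher and 4 lower by share, 1 was called higher (Gata1) at Ct 18, with Actb and Gapdh as covariate, with the 14 broadly detected assays as covariate, or without edge wells, and 0 in cells within the shared range of Actb and Gapdh Ct, where Gata1 differed by 23.7 and 7.74 points. At Ct 18 the 4 called lower were Cbx7, Hhex, Hk3 and Notch1, without Trib2 and mettl7a1, and without edge wells they were Ccnd1, Hoxb5, Notch1 and Rbl1. With the count of products per cell as covariate 2 were called lower, Notch1 and Trib2. Pooling the cells of both plates gave 4 higher and 13 lower, a call size of 5 points 6 and 13, of 15 points 0 and 2, and the sign alone 13 and 25. With either plate left out, 7 to 8 were higher and 10 to 21 lower. By level, against 2 higher and 2 lower, 1 was higher when centred on the broadly detected assays, 5 were higher and 15 lower over all cells, 0 were lower with at least 10 detecting cells, and 6 to 9 were higher and 9 to 14 lower with either plate left out. The level difference of Egr1 reversed to 0.17 over all cells. The cause of these changes was not tested, except that leaving out a plate loosens the call rule to 1 plate. Without the undetected plate 2 cell with the fewest products, chosen after seeing the data, 2 were called higher and 4 lower. Over 14 alternatives the mean difference ran from 13.8 to 24.1 points for Gata1, 7.13 to 16.8 for Itga2b, -26.7 to -17.5 for Notch1, -27.9 to -11.5 for Trib2, -26.3 to -10.8 for Hk3, -23.2 to -10.7 for mettl7a1 and 7.46 to 14 for CDK6. Each kept its direction, but for the called assays the call rule had already fixed it on each plate alone. The single plates gave both ends of the range for Gata1, Notch1, Hk3 and mettl7a1. Splitting on any Ly6a product left the groups unchanged. The range is therefore not independent evidence for the calls. One undetected cell was 4.17 points on plate 1 and 4.35 on plate 2, which limits the precision of every difference.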

Other observations

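Of the 2-week calls not shared with 5 weeks, some are given here. Slamf1, which encodes CD150, had a product in 9 of 10 Ly6a-undetected and 58 of 80 detected cells on plate 1 and in 6 of 6 and 59 of 87 on plate 2. With Actb and Gapdh allowed for, its differences were 1.88 and 22 points, so it was then not called. Klf1 had a product in 3 of 10 undetected and 1 of 80 detected cells on plate 1 and in 3 of 6 and 2 of 87 on plate 2. For vwf the differences were 40 and 34.5 points at 2 weeks, beside 4.91 and -5.51 at 5 weeks, and the difference between the times was not tested. Cd34 differed by -12.5 and -28.7 points at 2 weeks, beside -21.1 and 9.28 at 5 weeks. The 2-week values rest on 16 undetected cells with more Actb and Gapdh template. With that Ct allowed for, Klf1, vwf and Cd34 kept their calls.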
